A study of Mus musculus with 40 samples.

Results

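The genes described here are Trp53, which encodes the tumour suppressor p53, with its inhibitors and its established target genes, 31 genes in all. They were taken from a list of symbols and found by NCBI gene ID in the authors' tables of forebrain expression. All 31 are listed at both embryonic stages. An adjusted p is given for 29 of them at E14.5, among 13417 genes, and for 28 at E18.5, among 13601 genes. Fas and Perp have none at E14.5, and Fas, Pmaip1 and Tnfrsf10b have none at E18.5.

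p53 is a transcription factor that is made continuously and destroyed as fast by the ubiquitin ligase MDM2, whose partner MDM4 also blocks its activity. DNA damage and other stresses free p53 from MDM2, and it then binds paired half-sites near genes that halt the cell cycle, repair DNA or start apoptosis. In the embryonic mouse brain, p53 is best known for removing damaged neural progenitors, and loss of Mdm2 or Mdm4 there kills progenitors through p53. CHD8 has been described in mouse embryos as a protein that binds p53 and recruits histone H1 to its targets, which holds p53-dependent transcription down.

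The samples were forebrains of male mouse embryos, either Wild-type (WT) or Chd8 KI (KI), at embryonic days E14.5 and E18.5, with 5 polyadenylated RNA libraries of each genotype at each stage. Per the series title, KI mice model a duplication of the autism gene Chd8. The labels used here do not say where the added copy lies, what drives it, or whether each library is a litter of its own, so p-values measure the spread between these libraries. Each table gives the authors' comparison of the genotypes and no value per library, so levels per library cannot be shown and the depth is unknown. The authors' standard error (SE) gives the precision.

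Chd8 set the direction, because the headers do not name the numerator: the E14.5 log2 fold change of 0.64 (SE 0.031) and the E18.5 one of 0.51 (SE 0.038) are positive, per the authors' deposited table. Positive values are therefore read as higher in KI. All 6 forebrain identity markers were listed at both stages, and their values stand with those of the other markers at the end. In bulk tissue, fewer cells of a type and less RNA per cell cannot be told apart.

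Several of these genes have a match to the p53 response element within the 250 bases before and 50 bases after an annotated start, and the closest matches are shown because paired half-sites are what p53 binds. The search was for the p53 response element, 2 copies of the 10-base p53 half-site with 0 to 13 bases between them, keeping the core CNNG of each copy. The half-site reads the same on both strands, so 1 scan covers both, and no other motif was searched. Windows from RefSeq (GRCm38.p6) were found for 23 of the 31 genes, 32 windows in all. An element with at most 2 mismatches in its 20 bases was present in 6 of the 32 windows (18.8%), against 4.09% of all 32851 promoter windows. With at most 1 mismatch the counts were 4 of 32 (12.5%) against 0.627%, and the element of Cdkn1a had none, as did 0.0731% of all windows. In these lines the half-sites are in capitals, with 5 flanking bases on each side, 5′ to 3′ on the strand of the gene.
Cdkn1a: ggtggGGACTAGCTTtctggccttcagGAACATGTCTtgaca
Ccng1: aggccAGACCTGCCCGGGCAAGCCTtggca
Rps27l: atggcGGGCTTGTTGAGACTTGTCCgggcg
Gtse1: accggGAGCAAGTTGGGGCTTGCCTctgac
Bax: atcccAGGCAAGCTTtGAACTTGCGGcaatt
Sesn1: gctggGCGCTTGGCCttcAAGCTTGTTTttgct

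The stretch from Cdkn1a, the gene of the cell cycle inhibitor p21, lies at chr17:29090901-29090942 on the plus strand, and its first half-site starts 73 bases before the most upstream annotated start. Its half-sites are 12 bases apart, near the limit of 13. Bases farther upstream than the 250 of the window were not searched, so other elements of the gene could lie there. Ccng1 (cyclin G1) has its stretch at chr11:40755457-40755486 on the minus strand, with the element starting 195 bases before the start, and Bax, a pore-forming apoptosis gene, at chr7:45467074-45467104 on the minus strand, 201 bases before it. The plus-strand stretches of Rps27l and Sesn1 are at chr9:66946291-66946320 and chr10:41887248-41887280, with the element starting 117 and 186 bases before an annotated start. In Gtse1, at chr15:85859940-85859969 on the plus strand, the element begins 1 base before a start. Aen, Bbc3, Ddit4l, Mdm4, Plk3 and Trp53 had an element with 3 mismatches, just outside the limit, a level of match found in 15.6% of all windows when closer matches are counted too. A match describes letters in a window and does not show binding, and genes with no match, such as Mdm2, whose known elements lie in its first intron, are not thereby without one.

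No p53 gene changed between KI and WT at either stage under the authors' DESeq2 test at an adjusted p under 0.05. At E14.5 the count was 0 of 29, where 1.21% of all genes tested were called (0.738% higher and 0.47% lower in KI). The count at E18.5 was 0 of 28, where 0.0662% were called (0.0441% higher and 0.0221% lower). At an unadjusted p under 0.05, 6 of the 29 passed at E14.5 (20.7%, against 11.5% of all genes), 5 of them higher in KI (6.26% of all genes) and 1 lower (5.28% of all genes). At E18.5, 2 of the 28 passed in that way (7.14%, against 5.96% of all genes), both lower in KI (2.82% of all genes, with 3.13% higher). By sign alone, 22 of 29 log2 fold changes were above 0 at E14.5 (75.9%, against 49.8% of all genes), with a median of 0.04 against 0.00 over all genes. At E18.5, 15 of 28 were above 0 (53.6%, against 48.8%), with a median of 0.01, again against 0.00. The E18.5 mean weighted by precision had the other sign, at −0.0046. The genes share libraries, so these counts describe the list and are not a test of it.

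**Figure D1:**
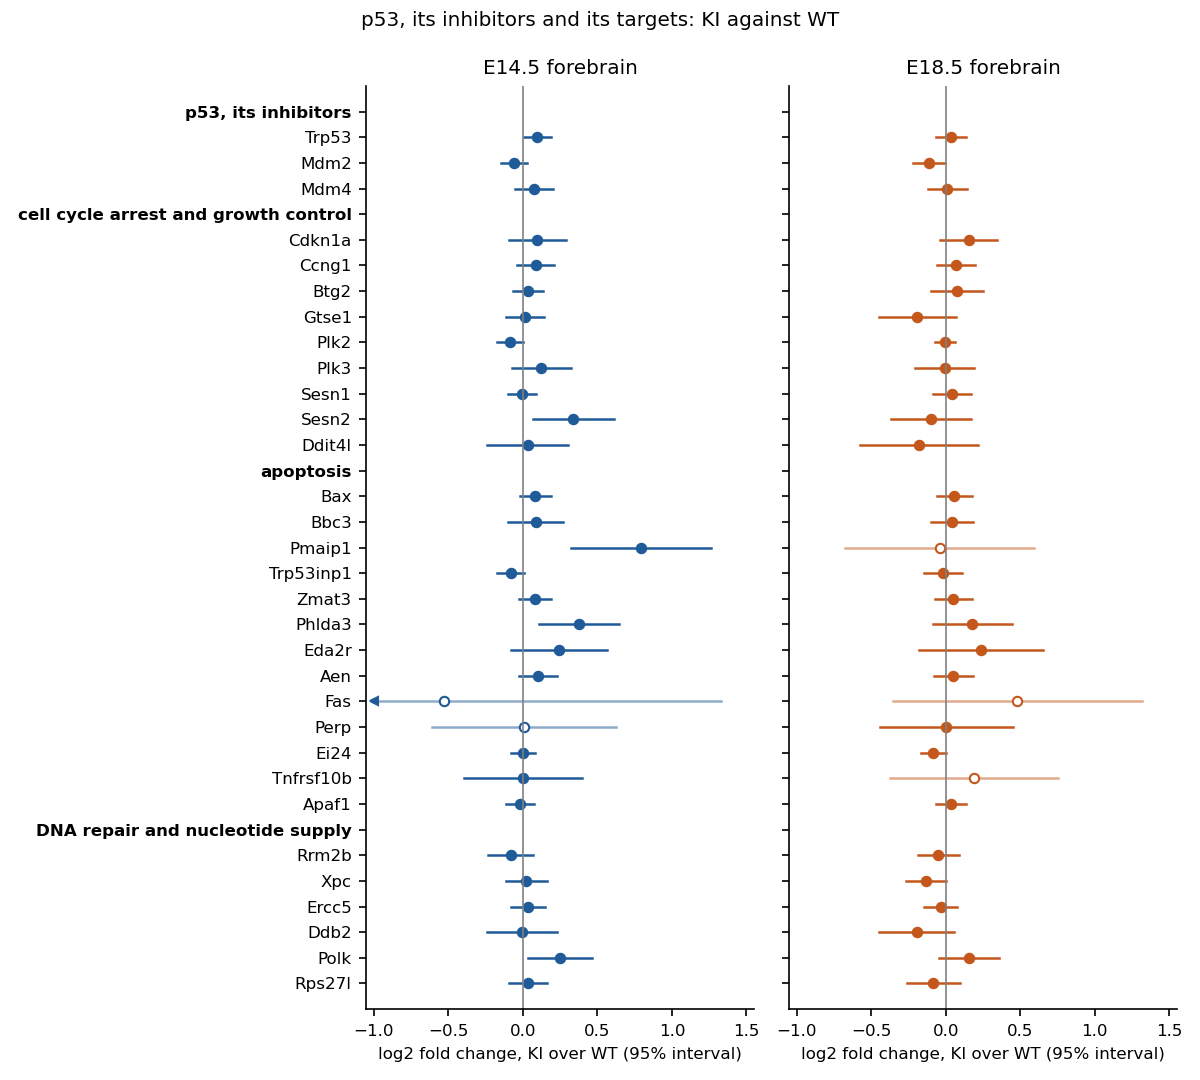
Log2 fold change of KI over WT (x axis, points) with its 95% interval (lines) for the 31 genes, grouped by role, at E14.5 (left) and E18.5 (right). Open points have no adjusted p, and the arrow marks an interval that runs past the axis. Pmaip1 at E14.5 stands farthest from 0 among the filled points, at 0.79.

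Trp53 itself had, at E14.5, a mean normalized count of 2104 and a log2 fold change of 0.10 (SE 0.046, p = 0.0347, adjusted p = 0.375) per the authors' deposited table. That fold implies group means of about 2033 in WT and 2176 in KI, 7.01% apart (95% interval 0.490% to 13.95%). Its E18.5 value was 0.03 (SE 0.052, adjusted p = 0.9999) with a mean of 1291, per the authors' deposited table. A rise of more than 9.81% lies outside the 95% interval at that stage.

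Mdm2, both the main inhibitor of p53 and a p53 target, was below 0 at both stages. At E14.5 it was −0.06 (SE 0.045, adjusted p = 0.679) with a mean of 1595, and at E18.5 −0.11 (SE 0.055, p = 0.0385, adjusted p = 0.805) with a mean of 1186, per the authors' deposited table. The implied means at E18.5 were 1233 in WT and 1140 in KI, and the 95% interval ran from −14.2% to −0.416%. Mdm4, which blocks the transactivation domain of p53, stood at 0.08 (SE 0.065, adjusted p = 0.721) and 0.01 (SE 0.067, adjusted p = 0.9999) per the authors' deposited table, at means of 2194 and 2131. None of these 3 genes passed the test at a stage.

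Genes of cell cycle arrest and growth control number 9, and 7 of them were above 0 at E14.5 but 4 at E18.5. Cdkn1a, the most used readout of p53 activity, stood at 0.10 (SE 0.097, adjusted p = 0.769) at E14.5 per the authors' deposited table, with implied means of 264 in WT and 283 in KI. The E18.5 value was 0.15 (SE 0.097, p = 0.112, adjusted p = 0.984) per the authors' deposited table, with implied means of 414 and 460. Its 95% intervals, −6.21% to 22.1% and −2.45% to 26.8%, contain 0 at both stages, so a rise up to those upper limits could not be told from no change. Ccng1, which recruits a phosphatase to MDM2, was at 0.09 (SE 0.063, adjusted p = 0.650) and 0.07 (SE 0.065, adjusted p = 0.9999) per the authors' deposited table, with means of 696 and 769.

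Sesn2, a sestrin that restrains mTORC1 under stress, had the largest value of this group. The E14.5 value was 0.34 (SE 0.139, p = 0.0147, adjusted p = 0.257) at a mean of 135 per the authors' deposited table, which implies 119.0 in WT and 151 in KI. For E18.5 the value was −0.10 (SE 0.136, adjusted p = 0.9999) at a mean of 110 per the authors' deposited table. Its relative Sesn1 was at −0.01 (SE 0.049) and 0.04 (SE 0.064) per the authors' deposited table. The element of Sesn1 shown above lies in the window of its more downstream start, and the window of its upstream start had none.

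Plk2, a polo-like kinase of neurons and of centriole duplication, was the gene below 0 among the 6 with an unadjusted p under 0.05 at E14.5, at −0.09 (SE 0.043, p = 0.0459, adjusted p = 0.423) per the authors' deposited table. At E18.5, where its mean was 4980, it stood at −0.004 (SE 0.034) per the authors' deposited table, and the 95% interval of −4.82% to 4.48% was the narrowest among the p53 genes. Gtse1, a microtubule protein of G2 and mitosis that restrains p53, was at 0.01 (SE 0.066) and −0.19 (SE 0.132) per the authors' deposited table. The remaining genes, Btg2 (an antiproliferative gene of neurogenic progenitors), Plk3 (a stress-activated kinase) and Ddit4l (an mTORC1 inhibitor), lay between 0.03 and 0.13 at E14.5 and between −0.18 and 0.07 at E18.5 per the authors' deposited table.

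Among the 13 apoptosis genes, 11 were tested at E14.5, of which 9 were above 0, and 10 at E18.5, of which 8 were. Pmaip1 encodes NOXA, which neutralises the survival protein MCL1, and was the gene nearest to a call. At E14.5 it stood, per the authors' deposited table, at 0.79 (SE 0.238, p = 0.000878, adjusted p = 0.0605), at a mean of 39.2. The implied means were 28.7 in WT and 49.7 in KI, 73.3% apart, with a 95% interval from 25.4% to 140%. At E18.5 the authors' deposited table gives −0.04 (SE 0.324, p = 0.897) with no adjusted p, at a mean of 29.3.

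Phlda3, which keeps the kinase AKT from the membrane, came next, at 0.38 (SE 0.137, p = 0.00607, adjusted p = 0.169) and a mean of 103 at E14.5 per the authors' deposited table. The implied means were 90.0 in WT and 117 in KI. At E18.5 it stood at 0.18 (SE 0.134, adjusted p = 0.9999) and a mean of 176 per the authors' deposited table. Eda2r, a receptor of ectodysplasin A2, was at 0.24 at both stages (SE 0.165 and 0.211, adjusted p = 0.603 and 0.9999) per the authors' deposited table.

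Bax, Bbc3 and Apaf1, of mitochondrial apoptosis, stood within 0.09 of 0 on the log2 scale. Pmaip1, of the same pathway, stood at 0.79 at E14.5, as given above. Bax stood at 0.08 (SE 0.052, adjusted p = 0.549) and 0.06 (SE 0.060, adjusted p = 0.9999) per the authors' deposited table, at means of 1506 and 1488. Bbc3, which encodes PUMA, was at 0.09 (SE 0.094, adjusted p = 0.794) and 0.04 (SE 0.072, adjusted p = 0.9999) per the authors' deposited table, at means of 246 and 666. For Apaf1, the scaffold of the apoptosome, the values were −0.02 (SE 0.047) and 0.04 (SE 0.050) per the authors' deposited table. A rise of more than 13.7% for Bax, 20.5% for Bbc3 and 5.10% for Apaf1 lies outside the 95% interval at E14.5.

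Ei24, an endoplasmic reticulum protein first isolated as p53-induced, was the other gene besides Mdm2 with an unadjusted p under 0.05 at E18.5. It stood at −0.08 (SE 0.042, p = 0.0479, adjusted p = 0.827) there and at 0.00 (SE 0.042, adjusted p = 0.998) at E14.5 per the authors' deposited table. Trp53inp1, a cofactor that promotes p53 phosphorylation, was at −0.08 (SE 0.045, p = 0.0656) and −0.02 (SE 0.065) per the authors' deposited table. Zmat3, an RNA-binding regulator of splicing, and Aen, a nuclease, were at 0.08 and 0.10 at E14.5 (SE 0.054 and 0.065) and at 0.05 and 0.05 at E18.5 (SE 0.064 and 0.067) per the authors' deposited table.

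Fas, Perp and Tnfrsf10b gave few counts. Fas, the FAS ligand receptor, had a mean of 2.15 at E14.5 and 11.4 at E18.5, and Perp, a desmosomal protein, 22.7 and 79.0, per the authors' deposited table. Tnfrsf10b, a TRAIL receptor, had means of 47.9 and 31.9 per the authors' deposited table. Their SEs ranged from 0.201 for Tnfrsf10b to 0.950 for Fas, both at E14.5, per the authors' deposited table. A rise of the size seen in Chd8 lay inside the 95% interval of Fas at both stages. The same held for Tnfrsf10b at E18.5, where the interval ran from −0.37 to 0.75 on the log2 scale.

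DNA repair and nucleotide supply account for 6 genes, of which 4 were above 0 at E14.5 and 1 at E18.5. The exception at E18.5 was Polk, a translesion polymerase, which stood at 0.25 (SE 0.109, p = 0.0218, adjusted p = 0.307) at E14.5 and 0.16 (SE 0.102, p = 0.124, adjusted p = 0.992) at E18.5 per the authors' deposited table. Its implied means were 164 in WT and 195 in KI at E14.5, and 178 and 198 at E18.5. Xpc, which recognises damage in nucleotide excision repair, was at 0.02 (SE 0.070) and −0.13 (SE 0.068, p = 0.0517, adjusted p = 0.855) per the authors' deposited table.

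Ddb2, another damage sensor, was at −0.01 (SE 0.119) and −0.19 (SE 0.128) per the authors' deposited table; 2554 bases of its annotated span overlap Acp2, and the sources used here do not say whether reads were counted by strand. Ercc5, an endonuclease of the same pathway, stood at 0.03 (SE 0.058) and −0.03 (SE 0.055), and Rrm2b, a ribonucleotide reductase subunit, at −0.08 (SE 0.077) and −0.05 (SE 0.071), per the authors' deposited table. Rps27l, a near copy of the ribosomal gene Rps27 that p53 induces, was at 0.04 (SE 0.065) and −0.09 (SE 0.091) per the authors' deposited table, and its reads may be shared with that copy. The 6 genes whose windows hold the element shown above had 95% intervals that contain 0 at both stages. Such intervals were the common case: over all genes, an unadjusted p under 0.05 was found for 11.5% at E14.5 and for 5.96% at E18.5. Whether genes with the element differ from other genes was not tested.

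Much of the spread among these genes followed their counts. Of the genes tested at E14.5, 17 had a mean normalized count of at least 500, and their median absolute log2 fold change was 0.06, against 0.04 over all genes at that level. Below 500 but at or above 100 there were 9, with a median absolute value of 0.10 against 0.08, and below 100 there were 3, with 0.24 against 0.15. Pmaip1 and Phlda3 were the 2 of 29 that lay outside the central 95% of genes of their level at E14.5, and 0 of 28 did at E18.5. By construction only 95% of all genes lie inside, so a list of this size may have a few outside.

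**Figure D2:**
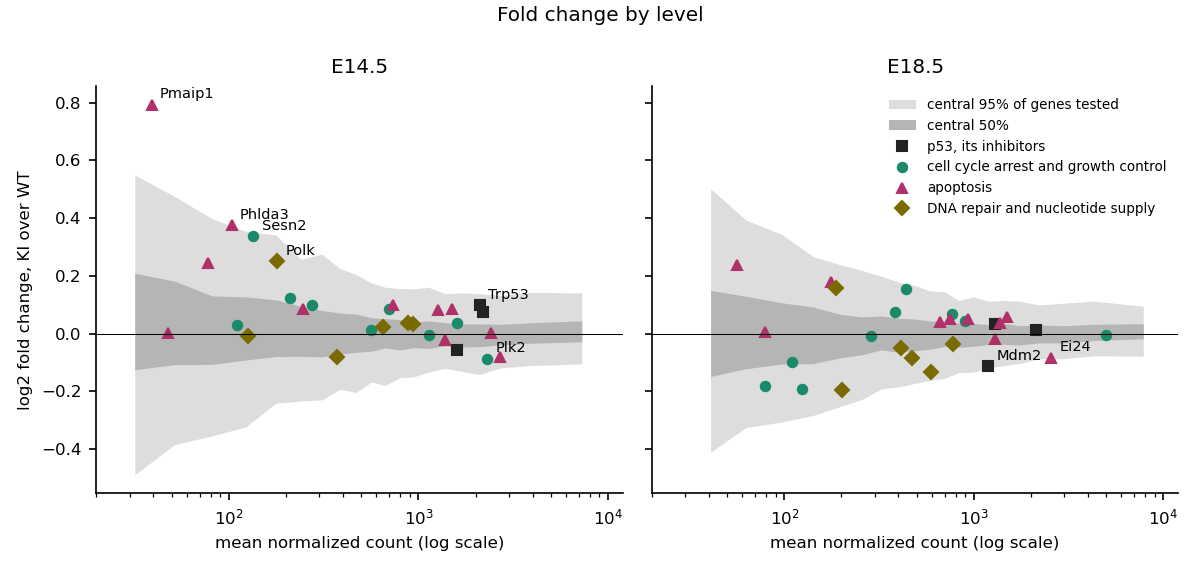
Log2 fold change of KI over WT (y axis) against mean normalized count (x axis, log scale) for the tested p53 genes at E14.5 (left) and E18.5 (right), with symbols by role. Grey bands hold the central 50% and 95% of all genes tested in 20 bins of level, and named genes have an unadjusted p under 0.05. Pmaip1 (0.79) and Phlda3 (0.38) lie above the wider band at E14.5.

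The intervals bound the size of any difference between the genotypes. At E14.5, 23 of the 29 genes had a 95% interval inside a 25% rise and the fall of the same log2 size (79.3%, against 74.3% of all genes). The exceptions were Sesn2, Pmaip1, Phlda3, Eda2r, Tnfrsf10b and Polk. At E18.5 it was 19 of 28 (67.9%, against 74.8%), the exceptions being Cdkn1a, Gtse1, Sesn2, Ddit4l, Phlda3, Eda2r, Perp, Ddb2 and Polk. A rise as large as that of Chd8 lay outside the interval of 27 of the 29 genes at E14.5, all but Pmaip1 and Phlda3, and of 27 of the 28 at E18.5, all but Eda2r. A fall of that size lay outside the interval of all 29 at E14.5 and of 27 of the 28 at E18.5, where Ddit4l was the exception.

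The stages share no library, so the change at E18.5 could be tested against that at E14.5 for the 27 genes with an adjusted p at both. None passed over the 13106 genes tested at both stages by a normal test of the difference with Benjamini-Hochberg adjustment, where 0% of all genes were called. Sesn2 was the 1 gene of 27 with an unadjusted p under 0.05 (3.70%, against 4.52% of all genes, 2.2% lower and 2.33% higher). Its change at E18.5 was lower than at E14.5 by −0.44 on the log2 scale (SE 0.194, 95% interval −0.82 to −0.06, adjusted p = 0.999). By the ratio of the difference to its SE, Xpc came second, at −0.15 (SE 0.098, 95% interval −0.34 to 0.04, adjusted p = 0.999). Pmaip1, outside this test for want of an adjusted p at E18.5, differed by −0.84 (SE 0.403, 95% interval −1.62 to −0.05, adjusted p = 0.999 when every gene with a p-value was kept).

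For 20 of the 27 genes the value was lower at E18.5 (74.1%, against 50.4% of all genes), with a median difference of −0.06 against 0.00. Of the 27, 12 were above 0 at both stages and 5 below 0 at both, a same-sign share of 63.0% against 57.8% over all genes. Mdm2, Plk2, Trp53inp1 and Rrm2b were among those below 0 at both, with Cdkn1a, Ccng1, Bax and Polk among those above.

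**Figure D3:**
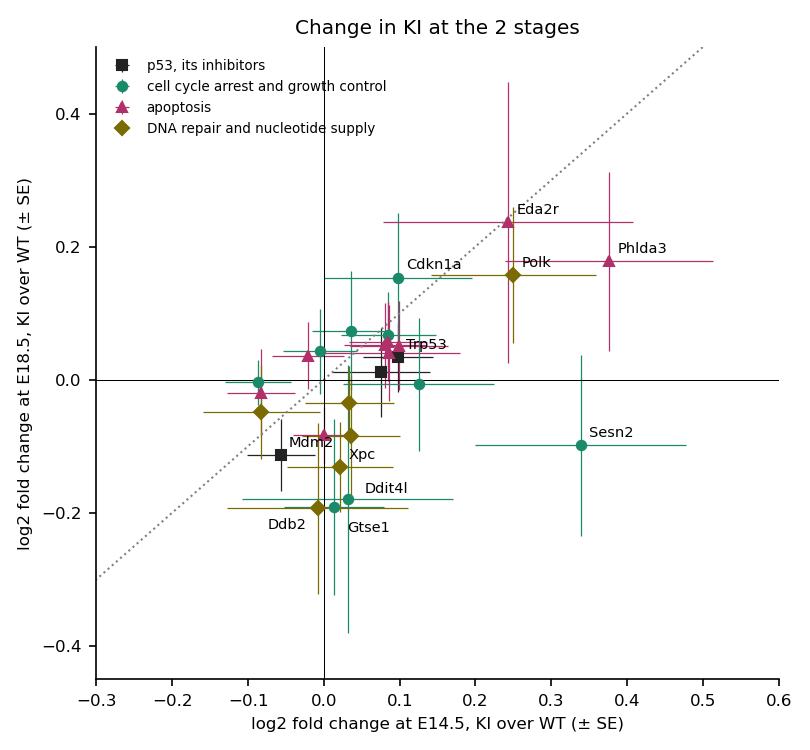
Log2 fold change of KI over WT at E18.5 (y axis) against that at E14.5 (x axis) for the 27 genes tested at both stages. Bars are ± 1 SE, symbols show roles, and the dotted line marks equal change. Sesn2 lies farthest below the line, at 0.34 and −0.10.

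Between the stages, the levels of several of these genes differed far more than between genotypes. The 2 tables were normalized separately and pool both genotypes, so each level is in CPM, the mean normalized count scaled to the same total in both tables, without an error or a test. Trp53 stood at 112 CPM at E14.5 and 63.5 at E18.5, a ratio of 0.565, and Mdm2 at 85.2 and 58.3, while Mdm4 was near level at 117 and 105. The lowest ratios were those of Gtse1 (29.9 and 6.12 CPM, ratio 0.205) and Btg2 (85.0 and 18.9, ratio 0.223), which mark dividing and neurogenic progenitors. Trp53inp1 (ratio 0.439) and Rps27l (ratio 0.493) were next.

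Higher levels at E18.5 were seen for Bbc3, at 13.2 CPM and then 32.7 (ratio 2.49), Plk2 at 123 and 245 (ratio 2.0), Phlda3 at 5.53 and 8.63 (ratio 1.56) and Cdkn1a at 14.6 and 21.5 (ratio 1.47). Perp and Fas also had higher ratios, 3.21 and 4.91, from the low counts given above. Of the 31 genes, 21 were lower at E18.5 and 10 higher, with a median ratio of 0.894 against 1.02 over the 15415 genes listed at both stages. A ratio above 1.5 was found for 5 (16.1%, against 23.2% of all genes) and one below its inverse for 7 (22.6%, against 11.8%).

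**Figure D4:**
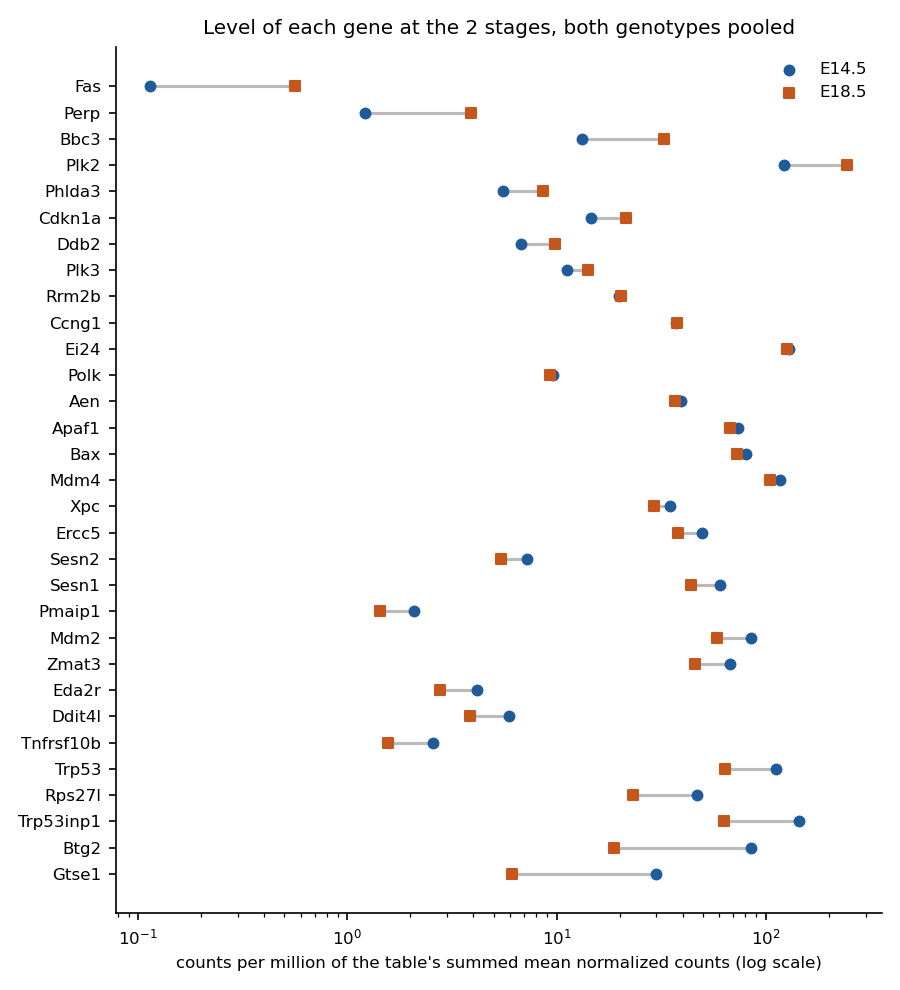
Level of each of the 31 genes at E14.5 (circles) and E18.5 (squares), in CPM of the summed mean normalized counts of each table (x axis, log scale), genotypes pooled and ordered by the ratio of the levels. Levels are not divided by gene length, so they compare stages and not genes. Gtse1 and Btg2, at the bottom, have the lowest ratios of E18.5 over E14.5 (0.205 and 0.223).

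The other genes of the pathway gave 0 calls in each of 6 further lists at both stages under the authors' DESeq2 test. Calls were rare over all genes too (1.21% for E14.5, 0.0662% for E18.5), and the lists hold 3 to 35 tested genes. A count of 0 in lists this short does not set them apart from other genes. Unadjusted counts are as follows. Among 25 tested genes of the p53 family and its direct regulators, 4 had an unadjusted p under 0.05 at E14.5 (16.0%, against 11.5% of all genes; 3 higher and 1 lower) and 0 at E18.5 (against 5.96%). The lowest p at E14.5 was that of Otud5, a deubiquitinase, at 0.11 (SE 0.040, p = 0.00657, adjusted p = 0.178), and at E18.5 that of Ppm1d, the phosphatase WIP1 that resets the damage response, at −0.10 (SE 0.072, p = 0.154) per the authors' deposited table. The paralog Trp73 stood at 0.07 (SE 0.066) and −0.05 (SE 0.115), and Trp63 had a mean of 5.46 at E14.5 with no adjusted p, per the authors' deposited table. The list's median log2 fold change was 0.01 at E14.5 and −0.01 at E18.5.

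DNA damage signalling, which activates p53, was mostly below 0 at E18.5. Of 17 genes, 8 were above 0 at E14.5 (47.1%, against 49.8% of all genes) and 4 at E18.5 (23.5%, against 48.8%), and the medians were −0.01 and −0.05. At an unadjusted p under 0.05, 3 passed at E14.5 (1 higher and 2 lower, 17.6% against 11.5% of all genes) and 5 at E18.5 (1 higher and 4 lower, 29.4% against 5.96%). Mdc1, the adaptor that binds phosphorylated H2AX, stood at −0.17 (SE 0.050, p = 0.000764, adjusted p = 0.0568) at E14.5 and −0.15 (SE 0.063, p = 0.0205, adjusted p = 0.770) at E18.5 per the authors' deposited table. Rad50, of the complex that senses broken ends, was at −0.15 (SE 0.067, p = 0.0272, adjusted p = 0.334) and −0.18 (SE 0.065, p = 0.00497, adjusted p = 0.522) per the authors' deposited table. The kinase genes Atm and Atr were at −0.01 (SE 0.054) and −0.04 (SE 0.068) at E14.5, and at −0.11 (SE 0.049) and 0.01 (SE 0.069) at E18.5, per the authors' deposited table.

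Of a further 35 p53 targets with an adjusted p at E14.5, 21 were above 0, and of 33 at E18.5, 17 were, the medians being 0.01 and 0.00. At an unadjusted p under 0.05, 4 passed at E14.5 (2 higher and 2 lower, 11.4% against 11.5% of all genes) and 5 at E18.5 (2 higher and 3 lower, 15.2% against 5.96%). The lowest p was that of Trim32, a ubiquitin ligase, at −0.11 (SE 0.043, p = 0.00775, adjusted p = 0.192) at E14.5, and of Acer2, a ceramidase, at 0.51 (SE 0.190, p = 0.00732, adjusted p = 0.603) at E18.5, per the authors' deposited table. Gadd45a, a growth arrest gene, was at 0.12 (SE 0.197) and 0.22 (SE 0.219), and Gdf15, a stress cytokine, had a mean of 1.482 at E14.5 with no adjusted p, per the authors' deposited table.

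Of 15 mitochondrial apoptosis genes outside the p53 targets, 0 had an unadjusted p under 0.05 at either stage (against 11.5% and 5.96% of all genes). Casp9, the initiator caspase of the apoptosome, was at −0.08 (SE 0.056) and −0.05 (SE 0.064) per the authors' deposited table. The lowest p at E18.5 was that of the survival gene Bcl2l2, at 0.08 (SE 0.057, p = 0.155) per the authors' deposited table. Among 13 genes listed for the DREAM complex, through which p21 represses cell cycle genes, 0 had such a p at E14.5 (against 11.5% of all genes) and 4 at E18.5 (3 lower and 1 higher, 30.8% against 5.96%). The list also holds Mybl2 and Foxm1, which are not subunits of the repressor complex, and Foxm1 was 1 of the 3 lower genes. Lin9, a core subunit, stood at −0.10 (SE 0.067) and −0.27 (SE 0.107, p = 0.0121, adjusted p = 0.673), Lin37 at −0.05 (SE 0.086) and 0.00 (SE 0.109), and the pocket protein gene Rbl2 at 0.11 (SE 0.063, p = 0.0691) and 0.10 (SE 0.050) per the authors' deposited table.

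Linker histone H1 genes had 3 tested members. At an unadjusted p under 0.05, 1 passed at E14.5, higher in KI (33.3%, against 11.5% of all genes), and 0 at E18.5 (against 5.96%). H1f0, the H1 gene of quiescent and differentiating cells, stood at 0.15 (SE 0.046, p = 0.00177, adjusted p = 0.0835) at E14.5 and 0.12 (SE 0.061, p = 0.0543, adjusted p = 0.873) at E18.5 per the authors' deposited table. H1f1 had a mean of 3.84 at E14.5 with no adjusted p per the authors' deposited table. Most H1 messages carry no poly(A) tail, and the libraries hold polyadenylated RNA.

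**Figure D5:**
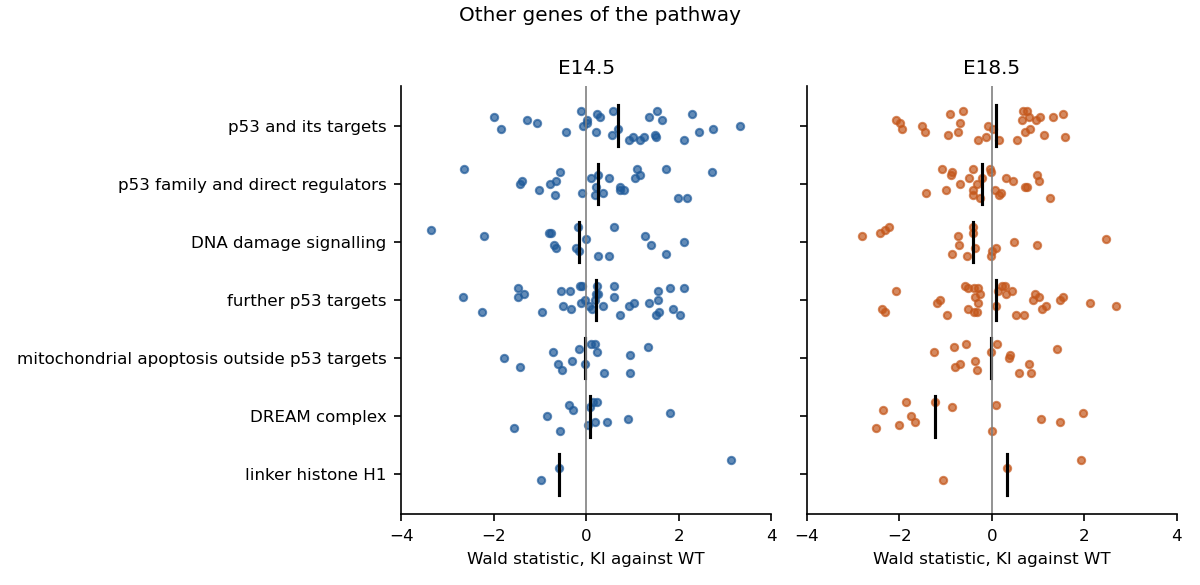
Wald statistic of KI against WT (x axis, positive is higher in KI) for each tested gene of the p53 genes and of 6 other lists (rows), at E14.5 (left) and E18.5 (right). Black bars mark the median of each list. The DREAM complex list, which also holds Mybl2 and Foxm1, has its median below 0 at E18.5, where 8 of its 13 genes were below 0.

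Some markers of cell types and tissues differed between the genotypes at E14.5, where most p53 genes were above 0. Of the 6 forebrain identity markers, 1 was called (16.7%, against 1.21% of all genes), Neurod6 of excitatory cortical and hippocampal neurons, at −0.20 (SE 0.046, adjusted p = 0.00438) per the authors' deposited table. An unadjusted p under 0.05 was found for 4 of the 6 (66.7%, against 11.5% of all genes), with Tbr1, of deep-layer neurons, also below 0 at −0.12 (SE 0.045, adjusted p = 0.209) per the authors' deposited table. Dlx2 and Lhx6, of the inhibitory lineage, were above 0, at 0.15 and 0.12 per the authors' deposited table. All 5 erythroid markers were above 0, between 0.45 and 1.01, of which Hbb-y at 0.50 (SE 0.068, adjusted p = 1.64e-09) and Hba-x at 0.59 (SE 0.149, adjusted p = 0.0118) were called per the authors' deposited table. All 4 listed markers of meninges and fibroblasts were above 0, between 0.28 and 0.76, with 0 of the 3 that have an adjusted p called (against 1.21% of all genes). At E18.5 all 5 of the latter, and 3 of 5 choroid plexus markers, have a fold change but no p-value, with SEs of at least 1.15 per the authors' deposited table. Endothelial markers lay between −0.16 and 0.02 at E14.5 and between −0.04 and 0.12 at E18.5, and microglial ones between −0.35 and 0.30 and between −0.08 and 0.18. The part of these cell types and tissues in the values of the p53 genes was not tested.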

How the data were processed

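RNA sequencing was analysed for 20 forebrain libraries, 5 of each genotype at each of E14.5 and E18.5. The submitters' processing notes name HISAT2 2.1.0, Trimmomatic 0.39, featureCounts 2.0.0, DESeq2 1.26.0 and build mm10; the annotation is not given in the sources used here. Per the file headers, the authors deposited 1 table per stage in the column layout of DESeq2. The authors computed a mean normalized count, used here as a signal averaged over the libraries of the stage. The authors computed a log2 fold change with its SE and a score, the Wald statistic, which equals their ratio. The authors computed each p-value and adjusted it, as deposited. The tables hold 0 columns of values per library, so the authors' deposited adjusted p under 0.05 was the call, and no count model was run.

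Symbols were matched by gene ID to RefSeq (GRCm38.p6), which holds 95.8% of IDs at E14.5 and 97.5% at E18.5. Intervals are the log2 fold change ± 1.96 SE. Group means were implied from the mean and the fold, with equal group sizes. The difference between stages was divided by the root of the summed squared SEs, given a two-sided normal p, and adjusted over all genes. That step was tested on simulated data. Python 3.11.15, pandas 2.3.3 and scipy 1.17.1 were used.

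The members, the other lists and the response element search were chosen with earlier results of these data known. Named are Trp53, Mdm2, Mdm4, Cdkn1a, Ccng1, Bax, Bbc3, Pmaip1, all genes with an unadjusted p under 0.05 and the 2 largest stage differences relative to their SE, with the rest more briefly. From other lists the rule names called genes, the lowest p per stage and the first 2 genes. Results of some genes that the rule would name are not reported here. Alternatives were the set of genes adjusted over, a mean of at least 100, the Benjamini-Yekutieli adjustment, an empirical null and centring. Chromatin immunoprecipitation and ATAC libraries were not analysed here.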

Additional observations from a re-analysis of the deposited data

How the results depend on the processing

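The counts of called p53 genes stayed at 0 at E14.5, at E18.5 and for the difference between stages under all 5 alternatives run. The 199 values of single named genes recomputed under them kept their direction and their side of the threshold, but much of this was fixed in advance. Changing the genes adjusted over, asking for a mean of at least 100 and Benjamini-Yekutieli leave each fold change as it is, so no direction could change there. Benjamini-Yekutieli can also only raise an adjusted p, so it could add no call. The lowest adjusted p, that of Pmaip1 at E14.5, ranged from 0.0615 with centring and 0.0801 over every gene with a p-value to 0.434 with the empirical null and 0.610 with Benjamini-Yekutieli; it is not tested at a mean of at least 100. With the empirical null, whose scale was 1.22 at E14.5, the genes with an unadjusted p under 0.05 at E14.5 went from 6 to 3 (Phlda3, Pmaip1 and Sesn2), and at E18.5 (scale 0.949) from 2 to 3, with Xpc added. With centring, Ei24 dropped out at E18.5, which left 1. Over all genes, calls at E14.5 went from 162 to 31 with the empirical null and to 56 with Benjamini-Yekutieli, and at E18.5 from 9 to 19 and 4, and to 14 at a mean of at least 100. A mean weighted by precision in place of the median log2 fold change of the p53 genes gave 0.03 at E14.5 and −0.0046 at E18.5, where the median was 0.0078. No paired analysis was possible because the tables hold no values per library, and for the same reason no library could be left out. Fas, Perp, Tnfrsf10b and Pmaip1 are limited by low counts.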

Other observations

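The authors' SE, taken over 5 against 5 libraries, implies a standard deviation between libraries of a genotype for each gene. Among the p53 genes tested at E14.5 it ran from 0.0658 on the log2 scale for Ei24 to 0.377 for Pmaip1, with a median of 0.103 against 0.108 over all genes. At E18.5 it ran from 0.0543 for Plk2 to 0.359 for Perp, with a median of 0.110 against 0.115. Cdkn1a, whose transcript reports p53 activity in single cells, had an implied standard deviation of 0.153 at both stages, and Trp53 0.0732 and 0.0818. These values follow the authors' model, which shares information between genes, and are not a measurement per library. Besides Ddb2, the annotated spans of Apaf1 and Zmat3 overlap listed genes, by 7 bases with Ikbip and by 177 bases with 4930429B21Rik.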
